A study of Homo sapiens with 32 samples.

Results

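Cytoplasmic RNA of HEK293T cells in which IGF2BP1 had been knocked out was compared with cytoplasmic RNA of a non-targeting CRISPR control. The comparison used 6 of the 32 libraries of the series, chosen by their labels: 2 of the knockout, from batches 1 and 2, and 4 of the control, from batches 1 to 4. HEK293T is a transformed line from human embryonic kidney. Per the protocols, cells were transiently transfected with plasmids carrying 3 guide RNAs for IGF2BP1 together with GFP, single green cells were grown into colonies, and colonies were screened for the protein. The knockout is 1 such clone, so its libraries repeat a measurement of that clone. The control carried a guide that targets no mammalian gene. Whether it is a clone or a pool is not given in the sources used here. No group received any further treatment. RNA was separated into nuclear and cytoplasmic fractions with a kit, treated with DNase, selected for poly(A) and sequenced. Knockouts of the related genes IGF2BP2 (2 cytoplasmic libraries) and IGF2BP3 (4 cytoplasmic libraries), 1 clone each, are set beside this one below. With the batch term used below, their changes come from controls 3 and 4 and those of IGF2BP1 from controls 1 and 2. A difference from them was tested only where that is said.

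IGF2BP1 is a cytoplasmic RNA-binding protein of embryonic and cancer cells that is largely silent in most adult tissues. It binds target mRNAs through KH and RRM domains, assembles them into granules, and is known for protecting transcripts such as MYC from decay and for holding ACTB mRNA untranslated until it is localised. It has also been described as a reader of N6-methyladenosine (m6A) and as a shield of let-7 microRNA targets.

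Each library held 16720159 to 21758636 counts in these 6 libraries, and 23388 to 24277 genes had at least 1 count. Levels are given as CPM (counts relative to library size, scaled by TMM). Changes are log2 ratios of knockout to control, given ± the standard error (SE), from edgeR's quasi-likelihood fit with a batch term. A gene is called, and is said to rise or fall, at a Benjamini-Hochberg adjusted p under 0.05. The 4 control libraries fell into 2 pairs. Controls of batches 3 and 4 differed from those of batches 1 and 2 in 4843 of 18212 tested genes (26.6%), and 212 of these differed by at least 2-fold. Because of the batch term the knockout is measured against the controls of batches 1 and 2, and calls and list medians are also given against those of batches 3 and 4. The part of these control differences in the results was not tested. The labels do not say that libraries came from separate cultures, so the p-values measure the spread between these libraries, which may be technical.

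IGF2BP1 is encoded at chr17:48997412-49055650 (GRCh38). Its mRNA stood at 435, 428, 357 and 366 CPM in control libraries 1 to 4 and at 22.4 and 22.1 CPM in the 2 knockout libraries. The knockout libraries lay far below every control. The fall was 4.28 ± 0.048 on the log2 scale (19.4-fold; adjusted p = 2.55e-36, edgeR), which leaves 5.16% of the control level. Its paralogs are expressed in the same cells. IGF2BP2 had 86.9, 84.2, 89.3 and 89.2 CPM against 90.5 and 89.7 CPM and did not pass the test (0.075 ± 0.048; adjusted p = 0.22). IGF2BP3 had 74.8, 68.3, 69.1 and 68.5 CPM against 90.2 and 87.5 CPM and rose by 0.31 ± 0.050. Per kilobase of annotated exon, the control mean was 43.5 for IGF2BP1, 18.5 for IGF2BP2 and 8.25 for IGF2BP3 (CPM per kilobase), so IGF2BP1 was the most abundant of the 3 mRNAs in these controls.

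**Figure D1:**
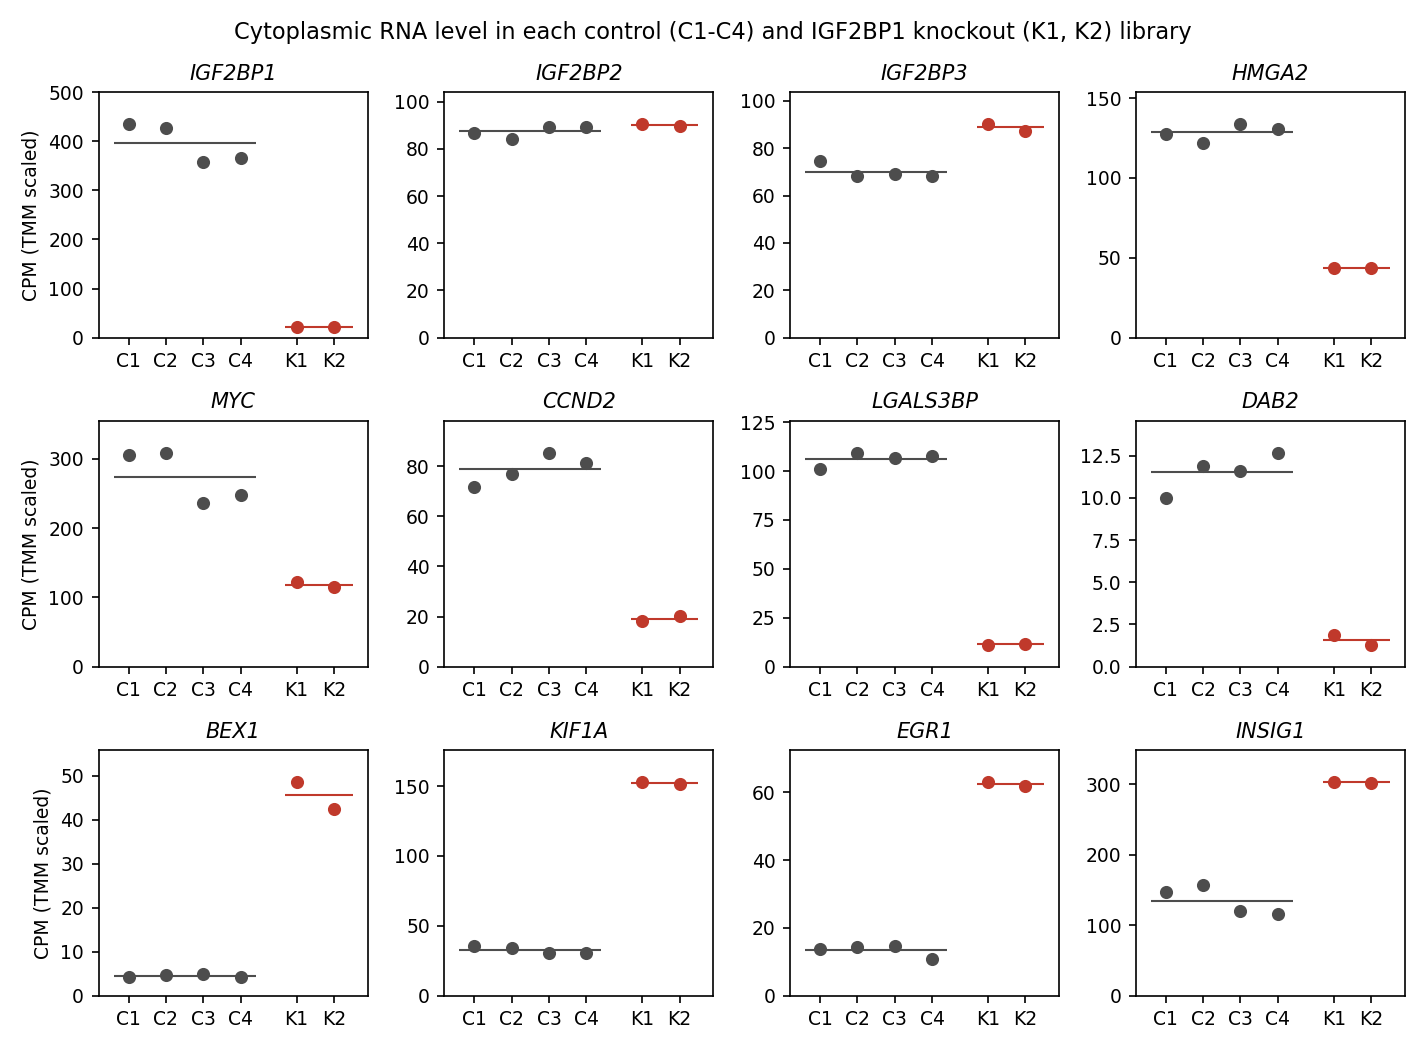
Cytoplasmic RNA level in CPM (vertical axes, linear and starting at 0) of 12 genes in control libraries C1 to C4 and knockout libraries K1 and K2 (points), with lines at the group means. The 2 knockout libraries lie outside the range of the 4 controls for each of the 12 genes, narrowly so for IGF2BP2, which did not pass the test.

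Over all genes, 8095 of 18212 were called (44.4%), 4103 higher (22.5%) and 3992 lower (21.9%). Most changes were small: 71.5% of the called genes changed by less than 1.5-fold, and 985 (5.41% of those tested) changed by at least 2-fold, 493 upward (2.71%) and 492 downward (2.7%). Of the 8095, 6115 (33.6% of all tested) were called the same way against the controls of batches 1 and 2 and against those of batches 3 and 4, where 9069 (49.8%) were called in all; 747 of the 6115 (4.1% of all tested) changed by at least 2-fold. Both knockout libraries were above all 4 controls for 4913 genes (27.0%) and below all 4 for 4534 genes (24.9%), called or not. In bulk RNA, fewer cells with a transcript and less of it per cell cannot be told apart. Without the batch term the number called was 4189, and of the genes named below BEX2, BEX5, CHAC1, DDIT4, DDX21, DKK3, EGR1, FASN, FOS, HSP90AB1, HSPA1B, ID3, IGF2, MT-CO3, NOLC1, PRDX1, SLC25A35, TCP1, TXNRD3 and VARS1 were no longer called. With a test against a 1.5-fold change it was 811. Every gene named below as rising or falling was also called in the same direction against the controls of batches 3 and 4, unless stated, and for all of them except FASN and HSPA1B both knockout libraries lay outside the range of the 4 controls.

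The 10 largest falls among genes with a mean of at least 5 CPM, IGF2BP1 itself among them, included secreted and membrane proteins. LGALS3BP, a secreted glycoprotein that binds galectins, had 101, 109, 107 and 108 CPM against 11.1 and 11.7 CPM. It fell by 3.20 ± 0.070 (adjusted p = 1.14e-27), and its gene lies on chromosome 17, which is described separately below. SERPINF1, which encodes the secreted factor PEDF and is also on chromosome 17, had 54.9, 59.5, 82.1 and 80.4 CPM against 9.70 and 10.04 CPM (fall of 2.53). DAB2, an endocytic adaptor, had 10.01, 11.9, 11.6 and 12.7 CPM against 1.87 and 1.28 CPM, and fell by 2.78 ± 0.17. PROCR, the endothelial protein C receptor, had 25.7, 26.2, 33.7 and 29.3 CPM against 6.30 and 5.74 CPM and fell by 2.11. UNCX, a homeobox transcription factor, was at 15.8, 17, 13.2 and 13.6 CPM against 1.08 and 0.90 CPM, a fall of 4.03. In all 5 genes the 6 libraries separated without overlap, which adds little, since the genes were picked for the size of their change. The other members of the 10 largest falls were the long noncoding RNAs LINC01694 (-4.33 ± 0.11) and LINC01976 (-2.84 ± 0.20), the collagen receptor DDR2 (-2.31 ± 0.097) and LRATD2 (-2.31 ± 0.044). LRATD2 lies on the same chromosome as MYC, which is described below.

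The 10 largest rises by the same rule included genes of nerve cells, adhesion and the immediate-early response. BEX1, a small X-linked protein of neurons, had 4.17, 4.603, 4.86 and 4.24 CPM against 48.6 and 42.6 CPM and rose by 3.37 ± 0.13 (adjusted p = 3.84e-21), the largest rise of this set. KIF1A, a kinesin motor that carries synaptic vesicle precursors, had 35.3, 33.9, 30.3 and 30.3 CPM against 153 and 151 CPM. Its rise was 2.14 ± 0.054. EGR1, an immediate-early transcription factor induced by ERK signalling, had 13.8, 14.4, 14.5 and 11 CPM against 63 and 62 CPM and rose by 2.15 ± 0.076. FAT3, a giant cadherin, had 4.43, 4.36, 3.63 and 3.30 CPM against 22.7 and 18.9 CPM (rise of 2.24). FENDRR, a long noncoding RNA, had 2.97, 2.77, 4.15 and 4.00 CPM against 12.6 and 14.2 CPM, and rose by 2.22. SPARC, a matrix glycoprotein, had 2.71, 3.12, 3.70 and 4.18 CPM against 10.5 and 10.5 CPM, with a rise of 1.84. Again no knockout library overlapped a control, in genes picked for the size of their change. The heparan sulfate 6-O-sulfotransferase HS6ST3 (2.10 ± 0.15), the receptor phosphatase PTPRM (2.01 ± 0.14), MIR924HG (2.07 ± 0.12) and LONRF2 (1.83 ± 0.070) completed the 10.

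Among abundant mRNAs (mean of 100 CPM or more) the largest falls after IGF2BP1 and LRATD2 were in CA2, HMGA2 and MYO1C. CA2, which encodes carbonic anhydrase II, had 713, 701, 725 and 701 CPM against 215 and 212 CPM and fell by 1.73 ± 0.037. MYO1C, a class I myosin on chromosome 17, had 166, 174, 177 and 184 CPM against 57.7 and 61.5 CPM, a fall of 1.51 ± 0.045. The largest rises were in MYCBP2, FLNA, INSIG1, TSC22D3 and RBM26. MYCBP2, a large ubiquitin ligase of axons, had 119, 104, 85.2 and 74.7 CPM against 257 and 243 CPM and rose by 1.16 ± 0.046. TSC22D3, the glucocorticoid-induced leucine zipper, had 320.1, 324, 348 and 351 CPM against 646 and 633 CPM and rose by 0.99 ± 0.035. RBM26, an RNA-binding protein of nuclear RNA surveillance, had 124, 125, 107 and 103 CPM against 248 and 241 CPM (rise of 0.97). RBM26 and MYCBP2 lie in the raised stretch of chromosome 13 given below. FLNA and INSIG1 are described with their groups.

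A further 3 genes had no count in either knockout library while the control mean was at least 0.5 CPM; they were singled out after their values were seen. GSPT2, a translation termination factor of the eRF3 family, had 68, 64, 41 and 55 counts in the controls, and was at least 19.8-fold lower, taking 3 counts per library as the floor for a count of 0. PADI3, a peptidylarginine deiminase, had 13, 7, 11 and 13 counts and was at least 3.93-fold lower. YBX2, a germ cell Y-box protein on chromosome 17, had 8, 12, 16 and 18 counts and was at least 4.88-fold lower. These floors cover counting error only. No gene had the reverse pattern.

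Gene lists are described in the next paragraphs by the numbers that rose and fell. The percents in parentheses are the members called higher and lower, to be read beside 22.5% and 21.9% of all genes, and the 2 medians are the change in the fit with the batch term and then against the controls of batches 3 and 4, beside 0.011 and 0.00062 over all genes. Shares near those of all genes are no result about a list. The shares also depend on level and class. Of all protein-coding genes 26.6% were called higher and 26.1% lower. In the highest of 5 equal groups by mean level, for protein-coding genes outside chromosome 17, these were 31.8% and 35.9%. The lists were not matched for level, so shares near these are no result either.

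mRNAs described as IGF2BP targets moved in both directions. Of the 30 listed as bound by IGF2BP proteins, 11 fell, 6 rose and 13 did not pass the test (20% higher and 36.7% lower, medians -0.011 and 0.0027). MYC, the transcription factor whose coding-region instability element IGF2BP1 is known to bind, had 306, 308, 237 and 247 CPM against 122 and 115 CPM. It fell by 1.38 ± 0.042 (2.60-fold; adjusted p = 1.37e-23). HMGA2, a chromatin architectural protein of fetal cells, had 127, 122, 134 and 131 CPM against 43.3 and 43.5 CPM and fell by 1.52 ± 0.050 (adjusted p = 1.10e-22). FSCN1, the actin bundler fascin, had 114, 126, 96.3 and 117 CPM against 51.3 and 47.8 CPM, a fall of 1.27 ± 0.059. ACTB, the localised mRNA through which this protein family was described, had 2708, 2703, 2407 and 2479.8 CPM against 2599.9 and 2707 CPM, and the change of -0.028 ± 0.035 did not pass the test. Against the controls of batches 3 and 4 the ACTB change was 0.12, so its sign depends on the controls used. IGF2 was low, at 2.97, 3.56, 2.53 and 2.47 CPM against 1.58 and 1.91 CPM. It fell by 0.90 ± 0.21, but not against the controls of batches 3 and 4. The proliferation marker MKI67 (-0.089 ± 0.043) did not pass, and it was 0.17 against the controls of batches 3 and 4. The run of chromosome 8 that holds MYC had a median of -0.33, and PVT1, the noncoding gene beside MYC, had 9.33, 9.80, 10.8 and 11.7 CPM against 4.92 and 4.30 CPM and fell by 1.05 ± 0.14. LRATD2 and NDRG1, named elsewhere for their falls, also lie on chromosome 8. The part of the lowered stretch in these falls was not tested.

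The oncofetal and let-7 list shares members with this one, and 7 of 16 tested members rose and 4 fell (43.8% higher and 25% lower, medians 0.097 and 0.11). LIN28B, which blocks let-7 maturation, had 101, 94.7, 80.1 and 79.1 CPM against 133 and 129.6 CPM and rose by 0.42 ± 0.050. GPC3, a heparan sulfate proteoglycan of fetal liver, had 40.5, 40.4, 44.7 and 39.7 CPM against 82.6 and 87.7 CPM, with a rise of 1.07 ± 0.058. PEG10, an imprinted retrotransposon-derived gene, had 0.94, 0.94, 0.65 and 0.71 CPM against 2.51 and 2.18 CPM and rose by 1.31 ± 0.29.

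HMGA2 and LIN28B are shown with their let-7 sites, since both are known let-7 targets with the same number of matches and moved in opposite directions. The first line below is the mature microRNA from RefSeq (GRCh38.p14), with its seed, bases 2 to 8, in capitals. The other lines are 22 bases from the 3′ untranslated region (3′ UTR) in GENCODE 29, each ending with the 7 letters that pair with the seed, in capitals.
let-7a-5p: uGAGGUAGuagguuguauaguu
HMGA2 site 1: gccaacgttcgatttCTACCTC
HMGA2 site 2: ccccactactcaataCTACCTC
HMGA2 site 3: ttgacttgcaaagacCTACCTC
HMGA2 site 4: aatcaaaacacactaCTACCTC
LIN28B site 1: acccggttgcaaagtCTACCTC
LIN28B site 2: tactgatgatagtaaCTACCTC
LIN28B site 3: gtttacagcaaaaggCTACCTC
LIN28B site 4: aaatgatggtgttgaCTACCTC

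These sites come from the coding transcript of each gene with the most matches, whose 3′ UTR is 3003 bases long in HMGA2 and 4549 in LIN28B. The motif CTACCTC was searched on the transcript strand. It occurs in 8.39% of all 19090 3′ UTRs taken from GENCODE 29 with 1 transcript a gene. Genes with a match differed in direction; TRIM71, IGF1R, NRAS and LIN28B were chosen as known let-7 targets after their values were seen. TRIM71, with 6 matches, had 21.7, 21.9, 18.3 and 15.9 CPM against 22.8 and 19.7 CPM and did not pass the test (-0.036 ± 0.085). IGF1R, the IGF1 receptor, with 2 matches, fell by 0.33 ± 0.051, while NRAS, with 1 match, rose by 0.40 ± 0.040. Across all protein-coding genes tested outside chromosome 17, the median change was 0.023 for 11505 genes with no match, 0.12 for 1086 genes with 1 and 0.13 for 136 genes with 2 or more. Matches were more frequent in long 3′ UTRs. In 5 equal groups by 3′ UTR length, the medians with and without a match were 0.088 (170 genes) and 0.015 (2375 genes) in the middle group, 0.12 (309) and 0.087 (2236) in the next, and 0.17 (626) and 0.16 (1920) in the longest. The microRNA itself was not measured, since the libraries were made from poly(A) RNA.

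In insulin-like growth factor signalling, the pathway that gave the protein its name, 8 of 24 tested genes rose and 5 fell (33.3% higher and 20.8% lower, medians 0.14 and 0.16). The binding proteins differed in direction. IGFBP5, which sequesters IGFs at the cell surface, had 32.2, 32.2, 33.5 and 34 CPM against 65 and 66.6 CPM and rose by 1.03 ± 0.060. IGFBPL1 had 3.54, 3.86, 3.31 and 4.18 CPM against 0.39 and 0.16 CPM, a fall of 3.69 ± 0.33. In knockout library 2 it was near the floor of 3 counts (0.159 CPM), so the size of this fall is uncertain. IGFBP2 (-0.13 ± 0.056) did not pass. GRB14, an adaptor that restrains the insulin receptor, had 7.97, 8.66, 10.2 and 8.54 CPM against 4.78 and 3.45 CPM and fell by 1.01 ± 0.15.

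Among the cell cycle genes named here, the D-type cyclins changed most. Of 15 D-type cyclins, their kinases and inhibitors, 8 rose and 5 fell (53.3% higher and 33.3% lower, medians 0.13 and -0.00070). CCND2, cyclin D2, had 71.8, 76.8, 85.2 and 81.3 CPM against 18.1 and 20.2 CPM and fell by 1.96 ± 0.067 (3.88-fold; adjusted p = 5.85e-22). CCND1 had 41.6, 42.4, 31.3 and 32 CPM against 19.2 and 21.3 CPM, a fall of 1.06 ± 0.071. Among inhibitors of cyclin-dependent kinases, CDKN1B (p27) had 32.2, 32, 34 and 35.7 CPM against 53.7 and 54.5 CPM and rose by 0.75 ± 0.059, and CDKN2C (p18) had 48.2, 47.9, 48.1 and 52.5 CPM against 79.2 and 81.7 CPM and rose by 0.74 ± 0.052. CDKN1A (p21) had 27.3, 30.9, 29.4 and 32.3 CPM against 27.9 and 28.8 CPM and did not pass (-0.036 ± 0.069). Of 40 replication and G1/S genes, 17 fell and 5 rose (12.5% higher and 42.5% lower, medians -0.061 and -0.076), with MCM10 at 146, 136, 128 and 122 CPM against 97.8 and 98.3 CPM. CCNE2, cyclin E2, had 25.7, 28.1, 25 and 22.8 CPM against 40.7 and 39.5 CPM and rose. Mitotic genes included 11 that rose and 5 that fell of 32 (34.4% higher and 15.6% lower, medians 0.053 and 0.14), with FOXM1 up by 0.35 ± 0.038 and AURKB, on chromosome 17, down by 0.93 ± 0.045.

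The actin list held 16 genes that fell and 9 that rose of 39 (23.1% higher and 41% lower, medians -0.035 and -0.031). FLNA, filamin A, a crosslinker of actin filaments on the X chromosome, had 215, 194, 174 and 201 CPM against 415 and 412 CPM and rose by 1.02 ± 0.054. PFN1, profilin 1, on chromosome 17, had 1105, 1076, 1096 and 1057 CPM against 545 and 555 CPM, a fall of 0.99 ± 0.036. ACTG1, also on chromosome 17, had 4477, 4451, 4679 and 4833 CPM against 2626 and 2666 CPM and fell by 0.75 ± 0.034. CFL1, cofilin, had 878, 846, 838 and 816 CPM against 889 and 907 CPM, and its change of 0.060 ± 0.037 did not pass.

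Junction genes rose more often than they fell. Of 25 cadherins and junction proteins, 13 rose and 4 fell (52% higher and 16% lower, medians 0.18 and 0.41). CDH2, N-cadherin, had 40.2, 40.5, 47.1 and 40.3 CPM against 98.2 and 103 CPM and rose by 1.32 ± 0.061. The desmosomal cadherins DSG2 (187, 185, 199 and 204 CPM against 324 and 345 CPM) and DSC2 (25, 25, 26.3 and 22.7 CPM against 40.8 and 43.8 CPM) rose by 0.84 and 0.76. All 3 lie in the raised run of chromosome 18 given below. JUP, plakoglobin, on chromosome 17, had 64.9, 64.7, 67.5 and 76.1 CPM against 35.8 and 35.5 CPM, a fall of 0.86 ± 0.056. The matrix list was divided, with 18 of 52 higher and 12 lower (34.6% higher and 23.1% lower, medians 0.062 and 0.045). GPC6, a glypican, had 11.6, 12, 14.8 and 14.8 CPM against 34.8 and 39 CPM and rose by 1.65 ± 0.078. It lies in the raised run of chromosome 13.

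Neuronal genes rose more often than they fell: 22 of 45 tested rose, 6 fell and 17 did not pass (48.9% higher and 13.3% lower, medians 0.28 and 0.25). SYT11, a synaptotagmin, had 0.68, 0.79, 0.65 and 0.29 CPM against 3.00 and 2.87 CPM and rose by 1.99 ± 0.28. CRMP1, a collapsin response mediator, had 1.88, 1.48, 2.92 and 2.59 CPM against 3.79 and 4.09 CPM, with a rise of 1.23 ± 0.20. STMN2, a microtubule regulator of growth cones, had 1.25, 1.73, 1.75 and 2.00 CPM against 0.049 and 0.11 CPM and fell; no fold is given, since the knockout libraries held 1 and 2 counts. RBFOX3, the neuronal nuclear antigen NeuN, on chromosome 17, had 4.33, 4.01, 3.63 and 5.18 CPM against 1.48 and 1.75 CPM (fall of 1.37). In the other knockouts the list had medians of 0.34 for IGF2BP2 and 0.51 for IGF2BP3. Of 11 members of the BEX and TCEAL family, 5 rose and 2 fell (45.5% higher and 18.2% lower, medians 0.20 and -0.079), and the median turned with the controls used. Beside BEX1, BEX2 rose by 0.38 ± 0.051, BEX5 fell by 0.40 ± 0.15 (not called without any 1 of the 4 libraries of batches 1 and 2), and BEX4 (0.058 ± 0.045) did not pass. BEX4 was -0.30 against the controls of batches 3 and 4.

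Of 51 axon guidance ligands and receptors, 20 rose and 13 fell (39.2% higher and 25.5% lower, medians 0.11 and 0.081); the share that fell was near that of all genes. SEMA3C, a secreted semaphorin, had 10.3, 8.46, 10.2 and 9.13 CPM against 19.4 and 19.7 CPM and rose by 1.06 ± 0.10. PLXNA2, a semaphorin receptor, had 11.3, 12.1, 12.5 and 13.3 CPM against 22.2 and 26.5 CPM, a rise of 1.05 ± 0.092. NRP2, a co-receptor for semaphorins and VEGF, had 23.6, 23.9, 22.9 and 19.9 CPM against 13.6 and 11.8 CPM and fell by 0.90 ± 0.096.

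Signalling lists were mixed in direction. In the Wnt pathway 13 of 41 genes rose and 13 fell (31.7% higher and 31.7% lower, medians -0.043 and -0.0090). The secreted Wnt antagonist SFRP1 had 2.81, 1.98, 2.59 and 1.47 CPM against 0.15 and 0.053 CPM and fell, with 3 and 1 counts in the knockout and therefore no fold given. The ligand WNT10B had 13.4, 15.2, 10.8 and 10.4 CPM against 5.76 and 5.90 CPM and fell by 1.29 ± 0.12. The receptor FZD10 had 5.47, 6.39, 4.603 and 5.71 CPM against 2.71 and 3.35 CPM and fell by 0.97, and DKK3 had 1.67, 1.93, 2.53 and 2.59 CPM against 3.59 and 3.93 CPM and rose by 1.06. In the TGF-beta and BMP pathway 17 of 44 rose and 7 fell (38.6% higher and 15.9% lower, medians 0.11 and 0.11). The ligand BMP2 had 12.7, 13.6, 11 and 11.4 CPM against 4.18 and 4.09 CPM and fell by 1.66 ± 0.13, together with the BMP-responsive gene ID3 (56.8, 59.2, 36.9 and 47.5 CPM against 32.4 and 30.6 CPM; -0.88 ± 0.075). FSTL1, a secreted follistatin-like protein, rose by 0.50 ± 0.043. In the Notch pathway the ligand JAG1 had 5.32, 5.69, 4.99 and 4.30 CPM against 14.3 and 13.2 CPM and rose by 1.32 ± 0.12, while 9 of 26 members fell and 5 rose (19.2% higher and 34.6% lower, medians -0.14 and 0.067). The Notch median thus turned with the controls used. Of YAP and TEAD target genes, 5 of 28 rose and 5 fell (17.9% higher and 17.9% lower, medians 0.0067 and -0.032), both shares under those of all genes, and TEAD1 itself had 62.1, 59.9, 49.7 and 51.2 CPM against 99.9 and 101 CPM (rise of 0.72). PTPN14, a phosphatase that restrains YAP, had 53, 51.2, 41.3 and 38.5 CPM against 77.3 and 79.5 CPM and rose by 0.59. The receptor tyrosine kinase list rose in 15 of 41 genes and fell in 9 (36.6% higher and 22% lower, medians 0.11 and 0.24). Beside EGR1, the immediate-early gene FOS had 1.41, 2.62, 1.95 and 1.94 CPM against 9.60 and 8.61 CPM and rose by 2.17 ± 0.17, and the receptor ERBB4 had 1.30, 0.84, 1.102 and 0.88 CPM against 3.45 and 3.67 CPM and rose by 1.73 ± 0.24. EGR1 and FOS also rose in the IGF2BP2 knockout (EGR1 by 4.53, FOS by 4.90) and with the loss of IGF2BP3 (EGR1 by 3.04, FOS by 3.74). Of 38 HOX genes tested, 8 rose and 13 fell (21.1% higher and 34.2% lower, medians -0.025 and 0.17), a median that turned with the controls used. The 8 that rose lie outside chromosome 17, and of the 13 that fell 4 do; HOXB9, on chromosome 17, had 435, 431, 425 and 426 CPM against 205 and 211 CPM.

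Innate immune signalling is named in the series' title. Of 46 interferon-stimulated genes tested, 11 rose and 11 fell (23.9% higher and 23.9% lower, medians 0.034 and 0.077), shares near those of all genes. OAS3, which senses double-stranded RNA, had 2.55, 1.88, 3.11 and 2.06 CPM against 6.10 and 6.32 CPM and rose by 1.49 ± 0.19. IFITM1, a membrane restriction factor, had 6.72, 10.05, 10.1 and 9.66 CPM against 1.72 and 2.497 CPM, a fall of 1.99 ± 0.16. Of 34 sensing genes 6 rose and 7 fell (17.6% higher and 20.6% lower, medians 0.0049 and -0.027), again near or under the shares of all genes. IKBKE, the kinase that activates IRF3, had 8.18, 8.56, 7.65 and 7.95 CPM against 1.92 and 2.82 CPM and fell by 1.83 ± 0.16. TLR6 had 1.72, 2.57, 2.01 and 2.06 CPM against 0.59 and 0.48 CPM, with a fall of 1.98 ± 0.32. In the NF-kappaB list 6 of 25 rose and 5 fell (24% higher and 20% lower, medians 0.056 and 0.14), also near those shares. The subunit REL, at 9.64, 8.96, 6.48 and 6.65 CPM against 16.3 and 15.7 CPM, rose. So did the nuclear NF-kappaB regulator NFKBIZ, at 3.86, 2.97, 3.57 and 3.06 CPM against 6.60 and 6.59 CPM. MHC class I presentation leaned downward, with 10 of 20 lower and 3 higher (15% higher and 50% lower, medians -0.19 and -0.28). TAP2, a subunit of the peptide transporter, had 28.1, 29.5, 28.4 and 27.2 CPM against 16.9 and 19 CPM and fell by 0.68 ± 0.077, and NLRC5, the transactivator of these genes, had 2.29, 2.38, 2.20 and 2.94 CPM against 1.28 and 1.01 CPM and fell by 1.02 ± 0.28, which was not called without control library 2 or without knockout library 2.

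**Figure D2:**
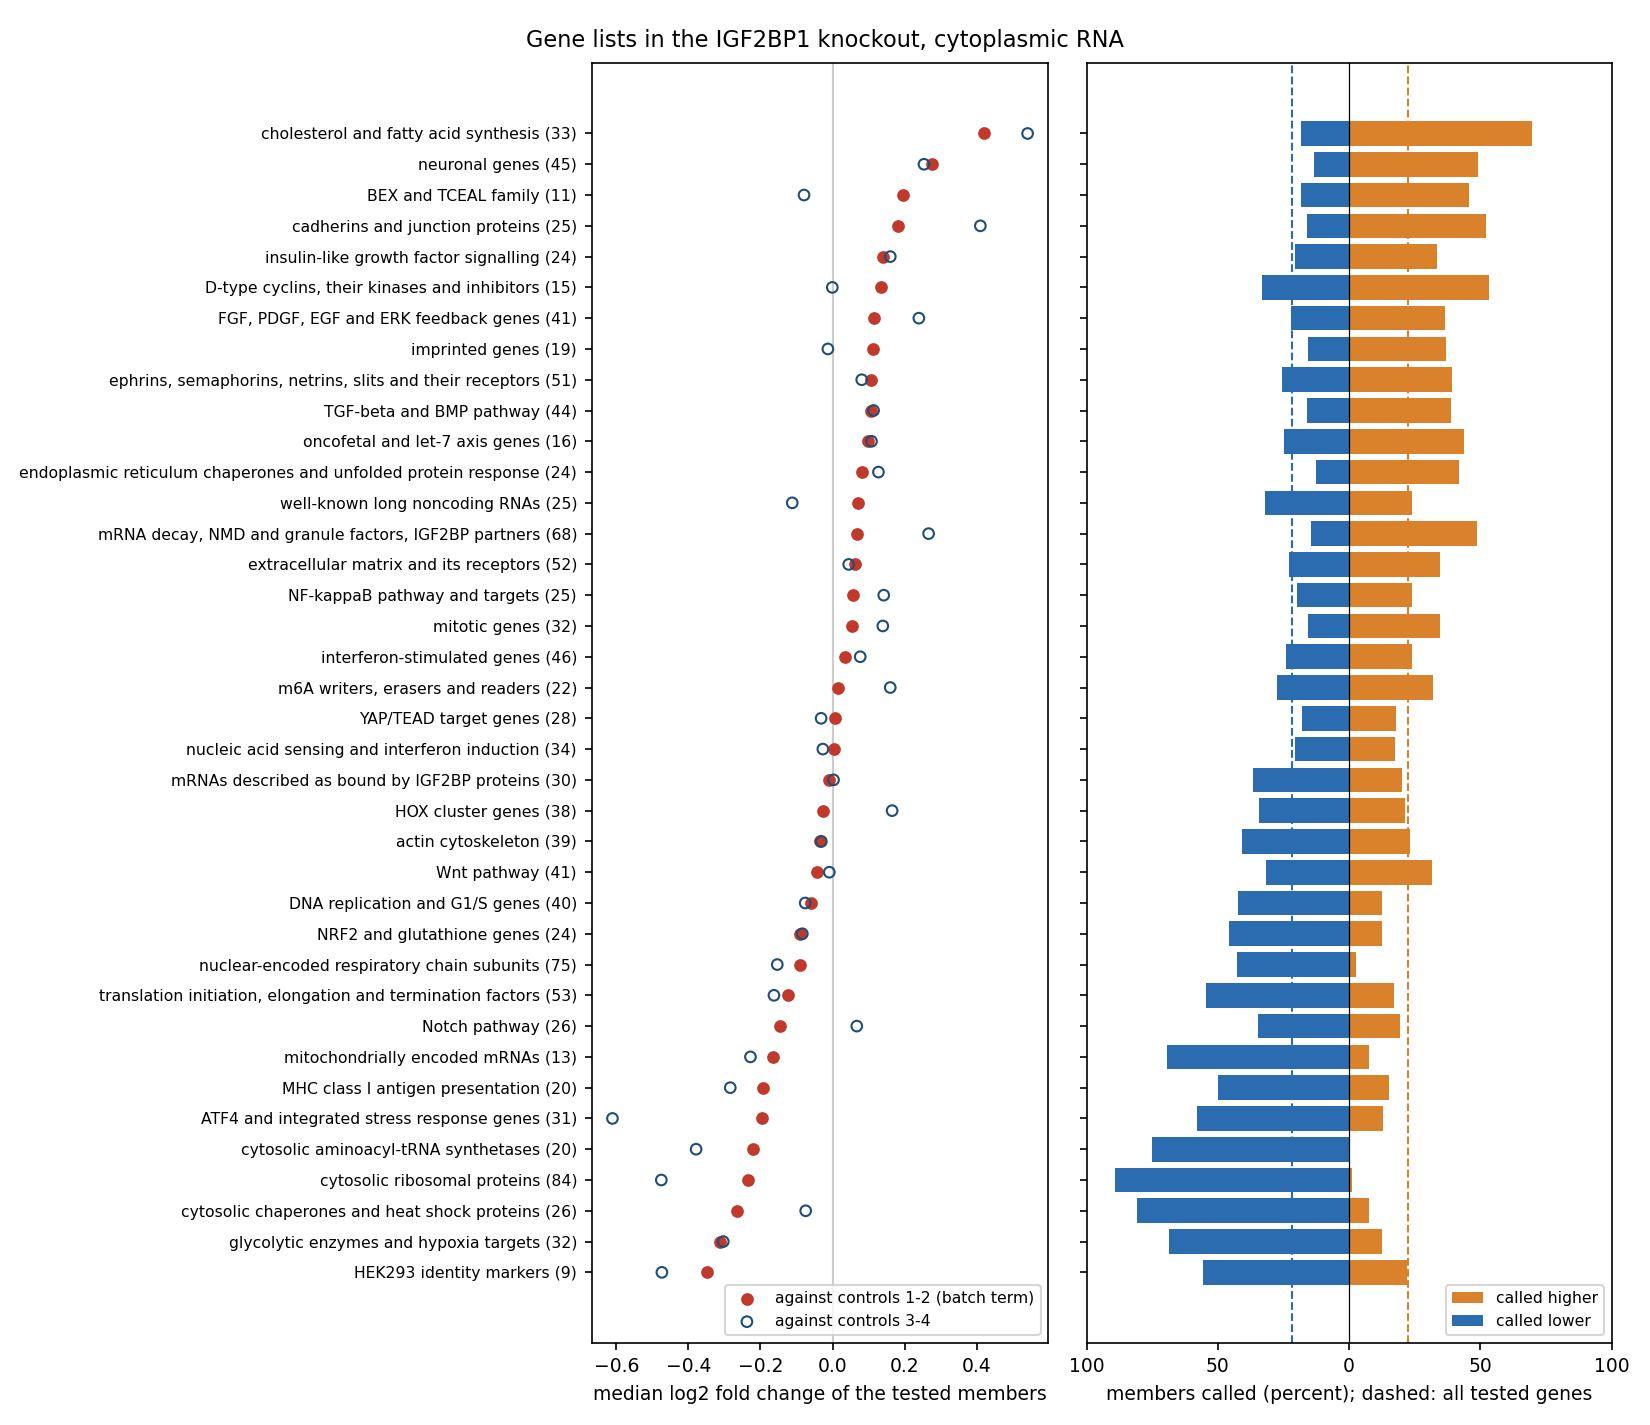
Median log2 fold change of the tested members of 38 gene lists (left, number tested in parentheses), against the controls of batches 1 and 2 (filled) and of batches 3 and 4 (open), and the percent of members called higher or lower (right), with dashed lines at the 22.5% and 21.9% of all genes. Cholesterol and fatty acid synthesis has the highest median, 0.42, and ribosomal proteins have the largest percent called lower.

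Genes of sterol and fatty acid synthesis rose more often than any other list in the plot of list medians. Of 33 genes, 23 rose, 6 fell and 4 did not pass (69.7% higher and 18.2% lower, medians 0.42 and 0.54), and 24 were called the same way against both control pairs. INSIG1, the sterol-regulated anchor of SREBP in the endoplasmic reticulum, had 147, 157, 119.7 and 116 CPM against 303 and 302 CPM and rose by 1.00 ± 0.041 (adjusted p = 5.04e-20). FADS2, a fatty acid desaturase, had 62.2, 60.4, 52.7 and 57.6 CPM against 135 and 143 CPM, with a rise of 1.18 ± 0.054. TM7SF2, a sterol reductase, had 13.7, 14.5, 13 and 14 CPM against 29.3 and 30.8 CPM and rose by 1.09 ± 0.083. CYP51A1, lanosterol demethylase, had 10.4, 10.05, 6.48 and 7.01 CPM against 13.9 and 16.3 CPM (rise of 0.56). SREBF1, a transcription factor that drives this pathway, had 64.5, 74.3, 71.1 and 74 CPM against 25.8 and 29 CPM. It fell by 1.34 ± 0.063 and lies on chromosome 17, as do ACLY (-0.72 ± 0.034) and FASN (-0.53 ± 0.041; 0.10 and called higher against the controls of batches 3 and 4). Without the 4 members on chromosome 17 the count was 23 higher and 2 lower. SQLE, squalene epoxidase, had 251, 253, 204 and 199 CPM against 239.9 and 249.7 CPM and did not pass (-0.042 ± 0.039), although it was called higher against the controls of batches 3 and 4 (0.28). In the IGF2BP2 and IGF2BP3 knockouts the list had medians of -0.50 and -0.21.

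Glycolytic enzymes and hypoxia targets fell in 22 of 32 cases and rose in 4 (12.5% higher and 68.8% lower, medians -0.31 and -0.30). PFKP, the platelet-type phosphofructokinase, had 146, 146, 146 and 153 CPM against 61.8 and 61 CPM and fell by 1.25 ± 0.050. NDRG1, a hypoxia-induced gene repressed by MYC and on the same chromosome as it, had 124, 123, 110.0 and 105 CPM against 37.5 and 37.7 CPM, a fall of 1.72 ± 0.055. SLC2A3, a glucose transporter, had 7.82, 8.37, 9.47 and 10.8 CPM against 3.54 and 3.88 CPM and fell by 1.12 ± 0.15. ENO2, the neuronal enolase, had 14.5, 14.3, 16.3 and 14.9 CPM against 25.5 and 27.8 CPM and rose. The abundant enzymes PGK1 (-0.075 ± 0.034) and TPI1 (-0.079 ± 0.034) did not pass. Nuclear-encoded respiratory chain subunits fell in 32 of 75 and rose in 2 (2.67% higher and 42.7% lower, medians -0.091 and -0.15). NDUFB9, a complex I subunit, had 151, 157, 165 and 163 CPM against 102 and 107 CPM and fell by 0.56. Of the 13 mRNAs of the mitochondrial genome 9 fell and 1 rose (7.69% higher and 69.2% lower, medians -0.17 and -0.23), with MT-CO3 at 8647, 8965, 8816 and 8544 CPM against 7157 and 7371 CPM. NRF2 and glutathione genes fell in 11 of 24 and rose in 3 (12.5% higher and 45.8% lower, medians -0.090 and -0.084). PRDX1, a peroxiredoxin, had 837, 824, 802 and 759.9 CPM against 639 and 622 CPM and fell by 0.40 ± 0.034, and HMOX1, heme oxygenase, had 46, 47.1, 28.7 and 31.7 CPM against 63.5 and 61.2 CPM and rose by 0.42. The IGF2BP2 and IGF2BP3 knockouts had medians of -0.85 and -0.54 for glycolysis and hypoxia, and -0.48 and -0.22 for respiratory chain subunits. They had -0.019 and -0.15 for the mitochondrial mRNAs, and -0.39 and -0.47 for NRF2 and glutathione genes.

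Genes of translation fell more often than they rose. Of 84 cytosolic ribosomal protein mRNAs, 75 fell and 1 rose (1.19% higher and 89.3% lower, medians -0.24 and -0.47). The controls of batches 3 and 4 were themselves above those of batches 1 and 2, by a median of 0.24 in this list, so the size depends on the controls. RPS24 had 1265, 1172, 1467 and 1415 CPM against 785 and 732 CPM and fell by 0.68 ± 0.034. RPL26, on chromosome 17, had 455, 443, 548 and 532 CPM against 193 and 180.2 CPM and had the largest fall of the list (-1.27 ± 0.037), and without the 6 members there the median was -0.22. Translation factors fell in 29 of 53 and rose in 9 (17% higher and 54.7% lower, medians -0.12 and -0.16). EIF5A, the hypusinated elongation factor on chromosome 17, had 1805, 1816, 1593 and 1631 CPM against 831 and 858 CPM and fell by 1.10 ± 0.037. EIF1, a factor for start codon selection on the same chromosome, had 860.4, 841, 1049 and 1034 CPM against 475 and 469 CPM and fell by 0.85 ± 0.034. EIF4G1, the scaffold of the cap-binding complex, had 975, 947, 713 and 726 CPM against 929.9 and 934 CPM and did not pass, although it was called higher against the controls of batches 3 and 4 (0.37). None of the 20 cytosolic aminoacyl-tRNA synthetases rose, and 15 fell (0% higher and 75% lower, medians -0.22 and -0.38), with VARS1 at 248, 240.3, 206 and 218 CPM against 159.9 and 165 CPM. The IGF2BP2 and IGF2BP3 knockouts had medians of -0.21 and -0.28 for ribosomal proteins. They had -0.40 and -0.48 for translation factors, and -0.36 and -0.67 for the synthetases.

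ATF4 and integrated stress response genes fell in 18 of 31 and rose in 4 (12.9% higher and 58.1% lower, medians -0.20 and -0.61). CHAC1, a glutathione-degrading enzyme induced by ATF4, had 32.7, 31.2, 21 and 21.2 CPM against 14 and 13.6 CPM and fell by 1.21 ± 0.079. DDIT4, an inhibitor of mTORC1, had 193, 207, 174 and 188 CPM against 129.6 and 128 CPM, with a fall of 0.64 ± 0.044. CEBPB, a transcription factor of the stress response, had 23, 25.2, 24.6 and 25.2 CPM against 14.7 and 15.8 CPM and fell by 0.66 ± 0.080. Genes of endoplasmic reticulum folding differed, with 10 of 24 higher and 3 lower (41.7% higher and 12.5% lower, medians 0.081 and 0.13). EDEM1, which directs misfolded glycoproteins to degradation, had 56.3, 59.9, 59.4 and 61.5 CPM against 78.7 and 76.5 CPM and rose by 0.42 ± 0.054. HSPA5 (BiP) had 431, 443, 354 and 349 CPM against 401 and 420.4 CPM and did not pass. Its change was 0.22 against the controls of batches 3 and 4. Cytosolic chaperones fell in 21 of 26 (7.69% higher and 80.8% lower, medians -0.27 and -0.075), but only 13 members were called the same way against both control pairs. HSPA1B, which can share reads with its near-identical copy HSPA1A, had 228, 232, 82 and 80.3 CPM against 143 and 143 CPM, below controls 1 and 2 and above controls 3 and 4. HSP90AB1, the constitutive cytosolic HSP90, had 2446, 2402, 2273 and 2145 CPM against 1688 and 1667 CPM and fell by 0.53 ± 0.038. TCP1, a subunit of the CCT chaperonin, was lower than all controls, with 761, 751, 648 and 610.1 CPM against 487 and 484 CPM. The IGF2BP2 and IGF2BP3 knockouts had medians of -0.77 and -0.715 for cytosolic chaperones. They had 0.46 and -0.25 for the integrated stress response, and -0.25 and -0.056 for endoplasmic reticulum folding.

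**Figure D3:**
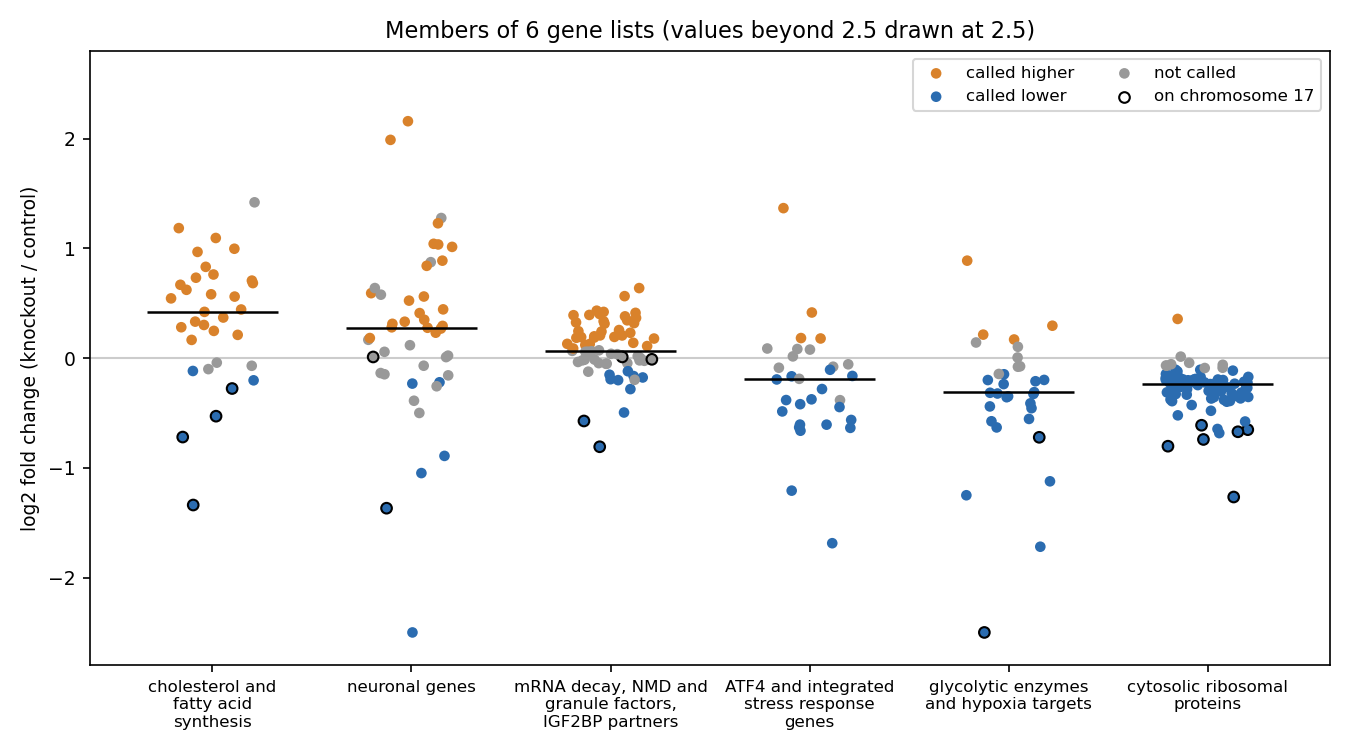
Log2 fold change (vertical axis) of each tested member of 6 gene lists, coloured by call, with black rings for genes on chromosome 17 and black lines at the list medians. The sterol list lies mostly above 0 with 4 ringed members below it. Ribosomal proteins lie mostly below 0, with a median of -0.24 and a range from -1.27 to 0.36.

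Factors that act on mRNA rose more often than they fell. Of 68 genes for mRNA decay, nonsense-mediated decay, granules and IGF2BP partners, 33 rose, 10 fell and 25 did not pass (48.5% higher and 14.7% lower, medians 0.068 and 0.27). XRN1, the cytoplasmic 5′-to-3′ exonuclease, had 34.6, 36.5, 35.7 and 34.3 CPM against 56.9 and 53.6 CPM and rose by 0.64 ± 0.062. DCP1A, a decapping cofactor, had 74.8, 74, 71.4 and 74.6 CPM against 110.4 and 109.6 CPM, with a rise of 0.56 ± 0.046. FXR2, on chromosome 17, had 122, 127, 104 and 113 CPM against 71.9 and 70.7 CPM and fell by 0.81 ± 0.049. Among 22 m6A genes 7 rose and 6 fell (31.8% higher and 27.3% lower, medians 0.015 and 0.16). The eraser ALKBH5 had 245, 248, 209 and 219 CPM against 131 and 134 CPM and fell by 0.90 ± 0.045, and the writer METTL16 had 112, 108, 85.5 and 91.5 CPM against 60.5 and 64.6 CPM and fell by 0.82 ± 0.051. Both are on chromosome 17. The reader YTHDF3 had 63.8, 62.2, 52.8 and 49.1 CPM against 84.7 and 83 CPM and rose by 0.41 ± 0.051. Of 25 well-known long noncoding RNAs 8 fell and 6 rose (24% higher and 32% lower, medians 0.070 and -0.11), and the median turned with the controls used. DANCR had 169.9, 160.3, 158 and 168 CPM against 63.5 and 64 CPM, a fall of 1.37 ± 0.049, and SNHG8 had 56.3, 48.2, 62.2 and 56.4 CPM against 29.8 and 30.3 CPM, a fall of 0.80 ± 0.067. Among imprinted genes 7 of 19 rose and 3 fell (36.8% higher and 15.8% lower, medians 0.11 and -0.013), a median that also turned. PHLDA2, an imprinted growth regulator, had 5.73, 5.54, 5.19 and 4.36 CPM against 1.48 and 2.39 CPM and fell by 1.55 ± 0.19.

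Markers of the cell line were present in all 6 libraries except PAX8, which had no count. Their summed level was 1110 to 1320 CPM of the library total in the controls and 823 to 847 CPM in the knockout. Of 9 tested markers, 5 fell and 2 rose (22.2% higher and 55.6% lower, medians -0.35 and -0.47). NEFM, a neurofilament typical of HEK293 lines, had 262, 264, 278 and 267 CPM against 129.9 and 124 CPM and fell by 1.05 ± 0.040. The 14 markers of other cell types summed to 29.5 to 32.7 CPM in the controls and 28.4 to 29.9 CPM in the knockout; CD3E and HBB had no count, and 9 of the 14 stayed under 1 CPM.

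Changes were unevenly spread over the genome, and chromosome 17, which carries IGF2BP1, had the lowest median of all chromosomes. Of its 1064 tested genes, 667 fell (62.7%) and 29 rose (2.73%), against 19.4% and 23.8% of genes elsewhere, and the median change was -0.50. Chromosome 17 held 5.84% of the tested genes, 16.7% of the genes that fell and 27.6% of those that fell by at least 2-fold. In consecutive runs of 50 tested genes, the first 6 runs, from 0.143 to 27.4 Mb (GENCODE 29, GRCh38), had medians between -0.79 and -0.94. In them 227 of 300 genes fell and none rose. The rest of the chromosome had a median of -0.37, with 440 of 764 genes lower and 29 higher. IGF2BP1 lies in that second part. Its 20 nearest tested neighbours, 10 on each side, had a median of -0.40. Genes of unrelated function were among those that fell. YWHAE, a 14-3-3 protein, had 1822, 1826, 1858 and 1701 CPM against 1111 and 1097 CPM, and PRPF8, the core splicing factor, had 1158, 1115, 996 and 987 CPM against 599 and 612 CPM. Their changes were -0.72 ± 0.037 and -0.91 ± 0.038. UBB, polyubiquitin, had 1358, 1329, 1408 and 1444 CPM against 846 and 867 CPM (-0.65 ± 0.035), and C1QBP, a mitochondrial matrix protein, had 915, 905, 913 and 878 CPM against 330.0 and 314 CPM and fell further (-1.50 ± 0.036).

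The same lowering of the first part of chromosome 17 was seen in other libraries of this knockout. Its median was -0.86 in the batch 1 pair of cytoplasmic libraries, -0.82 in the batch 2 pair, -0.86 in total RNA of batch 1 and -0.85 in nuclear RNA of batch 2. It was 0.013 in the IGF2BP2 knockout and 0.21 in the IGF2BP3 knockout, and the controls of batches 3 and 4 differed from those of batches 1 and 2 by -0.037. Other runs also moved. On chromosome 13 the run from 52.7 to 94.6 Mb had a median of 0.81 with 34 of 50 genes higher, and on chromosome 18 the run from 26.2 to 39.8 Mb had a median of 0.77 with 35 of 50 higher. These 2 runs were raised in the other knockouts as well, by 0.72 and 0.92 for chromosome 13 and 0.65 and 0.93 for chromosome 18. In the fit those 2 knockouts share the controls of batches 3 and 4, while the IGF2BP1 change comes from the controls of batches 1 and 2. Chromosome 10 had a median of -0.27, with 333 of 703 genes lower, and the IGF2BP2 and IGF2BP3 knockouts had -0.27 and -0.11 there. In total 33 of 349 runs had a median beyond 0.25 in both batch pairs, 25 of them lower, and 16 of the 25 lay on chromosome 17. DNA copy number was not measured, and its part in these results was not tested.

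**Figure D4:**
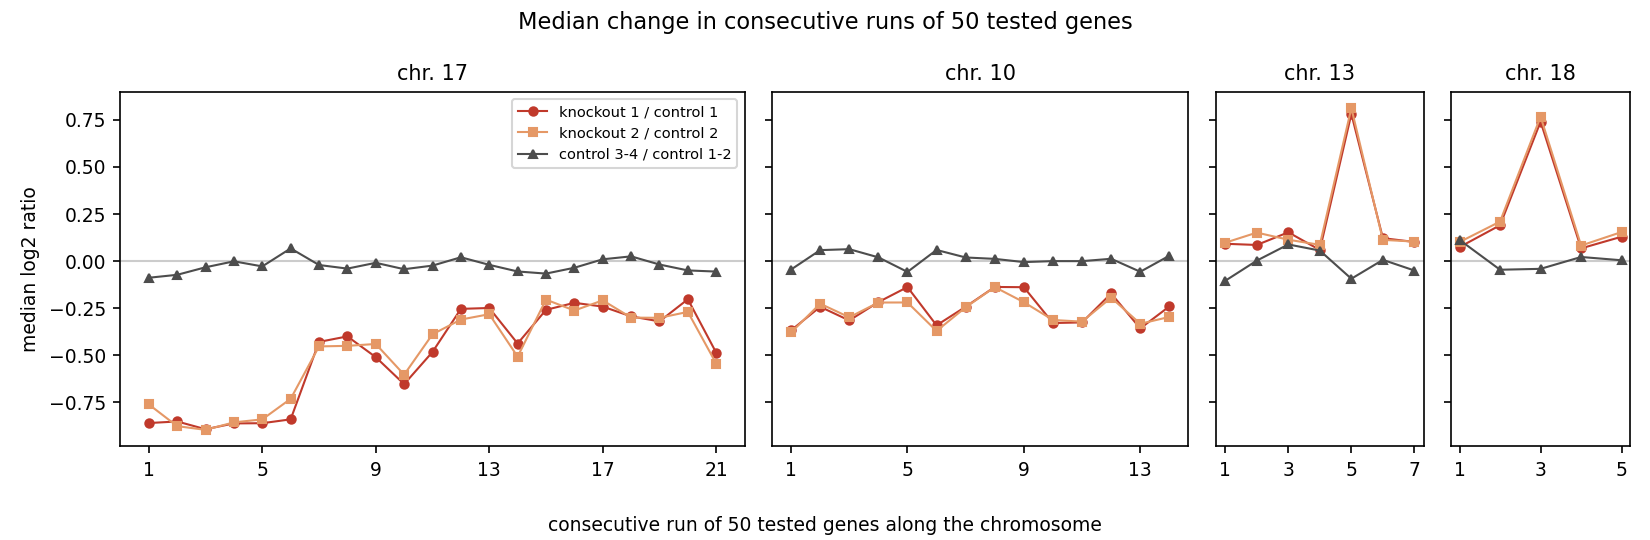
Median log2 ratio in consecutive runs of 50 tested genes (horizontal axis, in order along the chromosome) for the batch 1 and batch 2 pairs of knockout and control, and for controls of batches 3 and 4 over controls of batches 1 and 2. Both pairs lie between -0.73 and -0.90 in the first 6 runs of chromosome 17 and peak in single runs of chromosomes 13 and 18, while the control ratio stays close to 0.

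The change was graded by 3′ UTR length. Protein-coding genes outside chromosome 17 and the mitochondrial genome were put into 5 groups of equal size by 3′ UTR length. The median change was -0.053 in the shortest group (median length 162 bases), -0.035, 0.019 and 0.090 in the groups between, and 0.16 in the longest (4124 bases). The percent of genes that rose went from 17.9% to 45.8%, and the percent that fell from 29.9% to 14%. Coding length gave a like order, from -0.021 to 0.14, and the medians also went from -0.096 to 0.12 with 3′ UTR length among genes of shorter coding regions and from -0.0073 to 0.19 among those of longer ones. The controls moved the opposite way: those of batches 3 and 4 over those of batches 1 and 2 had medians from 0.039 in the shortest group to -0.093 in the longest. Against the controls of batches 3 and 4 the knockout had -0.099 and 0.25. In total RNA of batch 1 the same groups had medians of -0.011 and 0.023, and in nuclear RNA of batch 2 they had 0.0099 and 0.069. In cytoplasmic RNA the IGF2BP2 knockout had -0.081 and -0.016, and the IGF2BP3 knockout had -0.073 and -0.068. These are descriptions with no test, since genes are not replicates, and the part of the control differences was not tested.

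**Figure D5:**
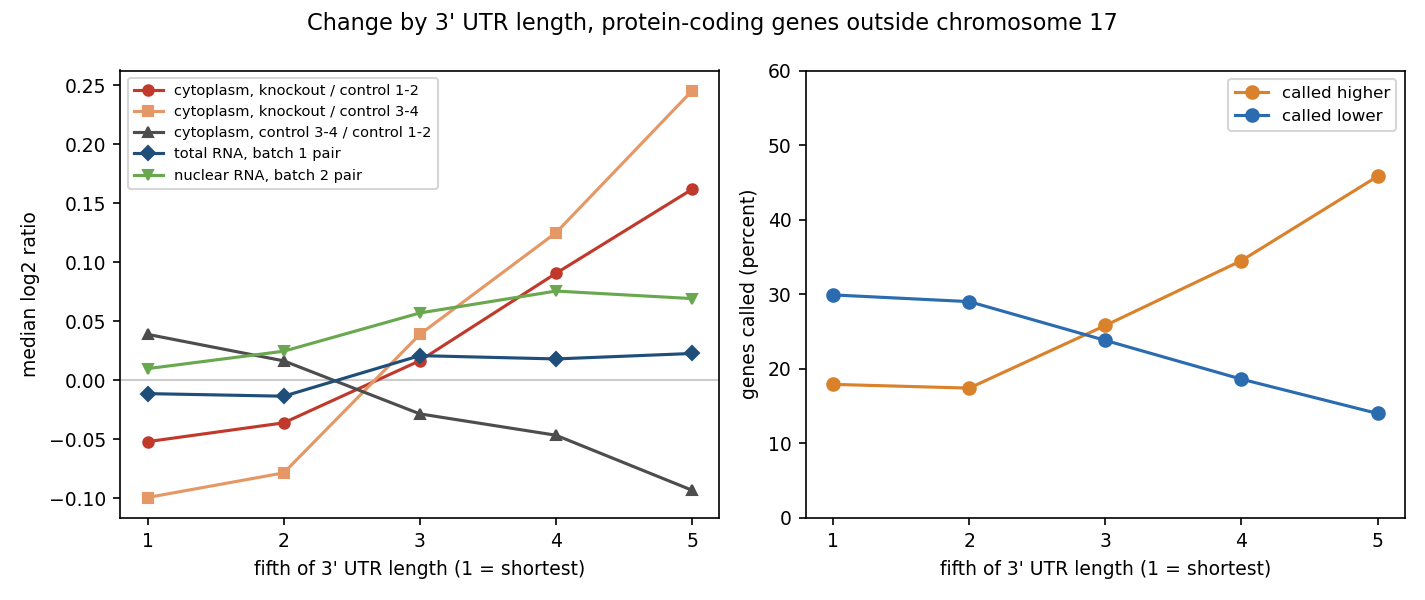
Left, median log2 ratio in 5 equal groups of protein-coding genes by 3′ UTR length, for cytoplasmic RNA against either pair of controls, for the control pairs against each other, and for the total and nuclear pairs; right, percent of genes called higher and lower. The cytoplasmic medians rise from -0.053 to 0.16 with length, and the control line falls from 0.039 to -0.093.

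Among 974 tested long intergenic RNAs 20.3% were called, with a median of 0.049, beside 52.7% of 13823 protein-coding genes, whose median was 0.012. Called changes of at least 2-fold numbered 99 in the first class and 674 in the second, a larger share of the intergenic RNAs. Low expression goes with fewer calls and more large ones: of protein-coding genes outside chromosome 17, 23.1% were called in the lowest of 5 equal groups by mean level and 67.8% in the highest, with 361 and 12 called genes of at least 2-fold. Its part in the difference between classes was not tested. Processed pseudogenes had a median of -0.11, with 7.73% lower and 2.63% higher.

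The difference from the other knockouts was tested in the same fit. Against control, 64.2% of genes were called in the IGF2BP2 and 64.7% in the IGF2BP3 knockout. The difference was called for 8823 genes against IGF2BP2 (48.4%) and for 9336 against IGF2BP3 (51.3%). The IGF2BP1 knockout was in batches 1 and 2 and the others in batches 3 to 5, so these differences run through the controls of both pairs, which differ as given above. Batch 5 holds IGF2BP3 knockout libraries and no control. With the batch term, its libraries do not enter the IGF2BP3 change, which rests on batches 3 and 4. In 1021 genes (5.61%) the IGF2BP1 change was called opposite to both others, with both differences called; 748 of these were higher in the IGF2BP1 knockout and 273 lower. BEX1 led them, with a change of 3.37 here, -3.30 in the IGF2BP2 and -3.36 in the IGF2BP3 knockout. CYP51A1 was 0.56 here beside -1.31 and -1.19, and the thioredoxin reductase gene TXNRD3 was 0.58 beside -0.93 and -1.08. Its rise was not called against the controls of batches 3 and 4. PTMAP4 and PTMAP9, pseudogenes of prothymosin alpha whose reads can be shared with the parent gene, completed the 5 that were higher. Among those that were lower, CHAC1 was -1.21 beside 2.33 and 1.61, and the noncoding RNA PURPL, with 12.3, 13, 15.6 and 14.9 CPM against 4.28 and 4.78 CPM, was -1.48 beside 1.22 and 0.81. KRT8, a keratin of simple epithelia, had 19.2, 18.7, 20.9 and 21.8 CPM against 12.5 and 11.2 CPM and was -0.68 beside 1.37 and 1.09. DLG4 (PSD-95) and SLC25A35, both on chromosome 17, were -1.39 and -0.62.

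The same test was read for HMGA2, CCND2 and MYC. HMGA2 was -1.52 here and -0.40 and -0.61 in the IGF2BP2 and IGF2BP3 knockouts, and both differences were called (-1.12 ± 0.067 and -0.92 ± 0.067). For CCND2 the differences were -2.34 ± 0.085 and -1.62 ± 0.087. MYC fell more than in the IGF2BP2 knockout (difference -0.66 ± 0.058) and less than in the IGF2BP3 knockout (0.45 ± 0.060).

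Total and nuclear RNA of the same clone are set beside these values for 1 batch pair each, with no test, since a second total library of this knockout held the same counts as a nuclear one. Of the 8095 called genes, 81.5% had the same sign in total RNA of batch 1 and 79.2% in nuclear RNA of batch 2. No share over all tested genes is set beside these. They include chromosome 17, with medians of -0.45 in total and -0.495 in nuclear RNA. IGF2BP1 was -4.31 in total and -4.08 in nuclear RNA, HMGA2 -1.55 and -1.32, and MYC -1.23 and -1.32. FLNA, which rose by 1.02 in the cytoplasm, was 0.26 in total and 0.60 in nuclear RNA. EGR1 was 0.82 and 1.16, beside 2.15 in the cytoplasm. Some list medians turned in sign and others did not. The mitochondrial mRNAs had 0.12 in total and 0.49 in nuclear RNA, beside -0.17 in the cytoplasm. Respiratory chain subunits had 0.027 and 0.17, beside -0.091. Ribosomal proteins had -0.24 and 0.16, beside -0.24, and sterol and fatty acid synthesis had 0.31 and 0.45, beside 0.42.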

How the data were processed

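RNA-seq libraries of HEK293T cells were grouped by their labels. Per the submitters' processing notes, STAR, featureCounts, DESeq2 (1.44.0) and GRCh38 were used; the settings, the annotation and whether counting used strand are not given in the sources used here, so overlapping and antisense genes cannot be told apart. The deposited read counts per gene are whole numbers without normalization. The deposited FPKM divide by the whole gene span with introns (within 2% for 100% of genes with at least 50 counts), so they served only as an alternative, and levels per length are CPM over the exons of GENCODE 29. No library had columns left unused.

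Counts were fitted with edgeR 4.0.16 (R 4.3.3): filterByExpr, TMM, and quasi-likelihood F-tests with batch and knockout terms over all 12 cytoplasmic libraries, which share 1 estimate of the spread (4 residual degrees of freedom; biological coefficient of variation 2.89%). The 18212 genes kept of 62703 were adjusted by Benjamini-Hochberg. In the controls and this knockout the replicate number is the batch number, so the batch term is also the replicate block. The pairing comes from the labels; batch 1 minus batch 2 differences of control and knockout correlated at r = 0.00999 over genes. The 2 knockout libraries differed from each other by more than counting noise (chi-square of 1.84 per gene), as did the control pairs (1.91 and 2.65).

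Named genes were IGF2BP1, IGF2BP2 and IGF2BP3; the 10 largest changes in each direction among called genes with a mean of at least 5 CPM, and 5 in each direction at 100 CPM; in each of 40 gene lists up to 4 called members with the largest change and a mean of at least 1 CPM, and up to 2 abundant members not called; up to 5 in each direction that went opposite to both other knockouts; and abundant genes of the runs given. The text prints a part of these; some items are not reported here. The members and lists were chosen with earlier results of these data known. Gene positions and 3′ UTRs came from GENCODE 29 (17513 of the tested identifiers matched), the microRNA from RefSeq. The fit was tested on simulated data that held no batch differences, so that test does not cover the differences between the control pairs. Alternatives were DESeq2 1.42.0, other scalings and filters, limma 3.58.1 on log2 of the deposited FPKM, other sets of libraries, and leaving out each library. Genes with near-identical copies, such as IFITM1, UBB and ribosomal protein genes with pseudogenes, can share reads and are uncertain. Floors cover counting error only.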

Additional observations from a re-analysis of the deposited data

Results flagged for a closer look

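In 5 of the 156 genes named (3.21%), 1 control library lay far from the other 3, a gap that chance gives in about 1 in 20 groups of this size. The share is under that rate, so the 5 are no result about these libraries. IGF2BP3 was at 74.8 CPM in control library 1 and at 68.3 to 69.1 CPM in the others. IFITM1 was at 6.72 CPM in control library 1 beside 9.66 to 10.1 CPM. CDH2 was at 47.1 CPM in control library 3 beside 40.2 to 40.5 CPM. CDKN2C was at 52.5 CPM in control library 4 beside 47.9 to 48.2 CPM, and PFKP was at 153 CPM in control library 4 beside 146 CPM. In all 5 the knockout libraries lay outside the range of the controls, that library included.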

How the results depend on the processing

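Of the 156 genes named, 143 were called, 93 of them with the same direction and call under every alternative run. The other 50 lost the call or reversed under at least 1, most under the test against a 1.5-fold change (44) or without the batch term (20). Against the controls of batches 3 and 4, an alternative chosen after seeing the data, 9 named genes had the opposite sign: HSPA1B (0.82), FASN (0.10), EIF4G1 (0.37), TRIM71 (0.32), SQLE (0.28), HSPA5 (0.22), MKI67 (0.17), ACTB (0.12) and BEX4 (-0.30). Of these, HSPA1B and FASN were called in the main comparison. DESeq2 called 5734 genes.

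The number of genes called was 811 in the test against a 1.5-fold change, which left 538 of at least 2-fold and 2018 and 2466 differences from the IGF2BP2 and IGF2BP3 knockouts. Without the replicate block it was 4189, the chromosome 17 median was -0.505, and the longest minus shortest 3′ UTR group was 0.286 (0.214 in the main fit). With limma on log2(FPKM + 1) these were 67 genes of at least 2-fold, -0.168 and 0.035, and on log2(FPKM + 0.1) 286, -0.363 and 0.120; a pseudocount shrinks low values. The chromosome 17 median was -0.507 with a filter of 1 CPM, -0.509 with control and IGF2BP1 knockout libraries alone, -0.511 with batches 1 and 2 alone, -0.491 without batch 5 and -0.484 against the controls of batches 3 and 4, where the 3′ UTR difference was 0.345. Leaving out each library in turn gave 5626 to 8297 genes called, 828 to 994 of at least 2-fold, 7334 to 8181 and 7917 to 8631 differences, a chromosome 17 median of -0.50 to -0.491 and a 3′ UTR difference of 0.206 to 0.224. Then BEX5 and NLRC5 lost the call as given above. The cause was not tested in any of these.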

Other observations

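The abundant genes of lowered runs on chromosomes 10 and 17 included 4 not described above, none of which any of the gene lists held. All 4 have nucleolar or ribosome assembly roles, and no rule set beforehand picked them from the abundant genes of those runs. They are therefore no result about such genes. NOLC1, a nucleolar chaperone on chromosome 10, had 697, 689, 599 and 580.5 CPM against 453 and 453 CPM and fell by 0.61 ± 0.036. DDX21, a nucleolar RNA helicase on the same chromosome, had 716, 697, 594 and 569.8 CPM against 503 and 483 CPM and fell by 0.52 ± 0.036. TSR1, a factor for maturation of the small ribosomal subunit, and MYBBP1A, a nucleolar regulator of polymerase I, lie in the first part of chromosome 17. TSR1 had 327, 322, 285 and 268 CPM against 135 and 137 CPM (-1.26 ± 0.039), and MYBBP1A had 381, 385, 299.8 and 296 CPM against 139 and 139 CPM (-1.46 ± 0.040). The median over that stretch was -0.86.

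Of the runs outside chromosomes 10, 13, 17 and 18, some were raised. A run of chromosome 6 from 26.4 to 28.4 Mb had a median of 0.38 with 20 of 50 genes higher, and one of chromosome 19 from 56.6 to 58.4 Mb had 0.34 with 23 of 50 higher. In the IGF2BP2 and IGF2BP3 knockouts they had 0.51 and 0.65, and 1.03 and 0.31. ZNF587, a zinc finger gene in the latter, had 16.6, 14.9, 11.3 and 13.4 CPM against 23.1 and 23.7 CPM and rose by 0.57 ± 0.093. A run of chromosome 6 from 153 to 167 Mb had a median of -0.31 with 26 of 50 lower (0.014 and -0.17 in the other knockouts), and EZR, ezrin, which lies in it, had 156, 165, 139.8 and 139 CPM against 126 and 122 CPM and fell by 0.37 ± 0.043. On chromosome 7 the run from 90.2 to 98.4 Mb had a median of 0.30, beside -0.31 and -0.36 in the IGF2BP2 and IGF2BP3 knockouts. CDK6, the kinase partner of D-type cyclins, lies there, had 70.9, 64.6, 49.7 and 52.3 CPM against 94.7 and 98.5 CPM, and rose by 0.51 ± 0.053.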
